A study of Homo sapiens with 6 samples.

Results

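Levels of 8 long noncoding RNAs (lncRNAs), MALAT1, NEAT1, KCNQ1OT1, MEG3, H19, TUG1, NORAD and DANCR, were followed in HEK293 cells, a human embryonic kidney line, in which ZNF146 or ZNF507 had been targeted with Cas9. The genes were taken by symbol from a count table of 57773 genes, and all 8 had a row, matched by Ensembl identifier. All 8 also passed the filter on low counts, as did 22010 genes in total. RNA was sequenced in 6 libraries, 2 per condition. EV cells received the empty PX459 plasmid, which carries Cas9, a puromycin resistance gene and no targeting sequence. sgZNF146 and sgZNF507 cells received 4 guides each against ZNF146 or ZNF507, which encode zinc finger proteins. All 3 groups were transfected transiently, selected with puromycin for 36 h and then grown out to 2 weeks. Each library thus came from a mixed population of transfected cells and not from 1 clone. Whether the disruption of either factor altered the transcriptome was the question put to these libraries.

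lncRNAs are transcripts that act, where a function is known, as RNA. MALAT1 sits in nuclear speckles, bodies rich in splicing factors, and NEAT1 is the scaffold around which paraspeckles are built. KCNQ1OT1, H19 and MEG3 are imprinted, which means that mainly 1 parental copy is transcribed. KCNQ1OT1 runs antisense within KCNQ1 and silences neighbouring genes on the paternal chromosome, whereas H19 and MEG3 are transcribed from the maternal chromosome, opposite in parental origin to IGF2 and DLK1. NORAD binds the RNA-binding protein PUM2 and is found largely in the cytoplasm. TUG1 is a broadly expressed transcript with nuclear and cytoplasmic copies, and DANCR is a host of small nucleolar RNAs best known for holding back differentiation of progenitor cells. The RNA was not fractionated and reads were not assigned to alleles, so neither nuclear location nor imprinted expression was measured here.

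On GRCh37, NEAT1 (chr11:65190245-65213011, plus strand) and MALAT1 (chr11:65265111-65275544, plus strand) are neighbours, each with a canonical transcript of 1 exon. H19 (chr11:2016396-2025782, minus strand) and KCNQ1OT1 (chr11:2618538-2721233, minus strand) lie on the short arm, in the imprinted domains of 11p15. MEG3 (chr14:101245747-101327368, plus strand) lies in the imprinted domain of 14q32. TUG1 (chr22:31365231-31375381, plus strand), NORAD (chr20:34633540-34638940, minus strand, 1 exon) and DANCR (chr4:53578492-53589790, plus strand) are in no such domain.

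MALAT1 and NEAT1 lie side by side on chromosome 11 and share an unusual end. Instead of a poly(A) tail, both long transcripts end in a triple helix in which U-rich stretches pair with an A-rich stretch, after RNase P has cut the RNA upstream of a tRNA-like fold. The letters TTTTGCTTT followed within 120 bases by AAAGCAAAA, which are reverse complements of each other, were searched on the strand of the transcript, and the match in each gene is shown because it marks the point where the long RNA is cut. Genome coordinates are GRCh37, sequences run 5′ to 3′ along the transcript, and capitals mark the U-rich and A-rich letters.
MALAT1, chr11:65273512-65273617, plus strand: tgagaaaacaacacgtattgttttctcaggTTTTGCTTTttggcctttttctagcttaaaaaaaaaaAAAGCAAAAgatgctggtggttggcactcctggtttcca
NEAT1, chr11:65212931-65213011, plus strand: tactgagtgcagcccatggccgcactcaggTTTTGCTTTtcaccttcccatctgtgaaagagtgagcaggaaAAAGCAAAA
The pair of motifs lay 28 bases apart in MALAT1 and 33 bases apart in NEAT1. In NEAT1 the stretch closed the annotated gene, and in MALAT1 it lay 1927 bases before the annotated end, within the only exon of the canonical transcript. Of 3947 tested lncRNA gene bodies, 13 held these letters (0.329%), and MALAT1 and NEAT1 were the only 2 of the 8 RNAs among them.

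NORAD is built from repeats that carry sites for PUM2. The letters TGTANATA occurred 15 times in its 5401 bases, which is 2.78 per kb, and the first window of 250 bases to hold 3 of them, the most of any, is shown trimmed, with the matches in capitals.
NORAD, chr20:34637413-34637654, minus strand: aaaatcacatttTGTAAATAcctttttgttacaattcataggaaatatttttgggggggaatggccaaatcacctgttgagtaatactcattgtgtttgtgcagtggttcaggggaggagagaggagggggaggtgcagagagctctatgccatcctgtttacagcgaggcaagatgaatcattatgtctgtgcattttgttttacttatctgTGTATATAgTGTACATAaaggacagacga
Among 2065 canonical transcripts of tested lncRNA genes with at least 1000 bases, 362 (17.5%) held at least 1 match, and 3, NORAD included, reached its number per kb. NEAT1 held 6 matches and TUG1 2, and the canonical transcripts of the other 5 RNAs held none. Those of KCNQ1OT1 (679 bases) and MEG3 (632 bases) were shorter than 1000 bases, and their other exons were not searched. These are matches to letters on the transcript strand, and binding was not measured.

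Mature microRNAs from within DANCR and MEG3 are given with the seed, bases 2 to 8, in capitals (RefSeq, GRCh38.p14).
hsa-miR-4449, in DANCR, hairpin gene at chr4:53578849-53578914 (GRCh37), plus strand: cGUCCCGGggcugcgcgaggca
hsa-miR-770-5p, in MEG3, hairpin gene at chr14:101318727-101318824 (GRCh37), plus strand: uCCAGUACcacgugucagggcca
hsa-miR-2392, in MEG3, hairpin gene at chr14:101280828-101280911 (GRCh37), plus strand: uAGGAUGGgggugagaggug
The 3 seeds differed from one another. The gene of miR-4449 drew 95 counts over the 6 libraries, 8 to 22 per library, and the genes of miR-770 and miR-2392 drew 0, where up to 3 counts per library are allowed by a count of 0. RNA libraries of this kind hold fragments of longer transcripts, so these counts do not measure mature microRNAs.

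Totals ran from 22724439 to 28524025 counts per library, and 30318 to 31207 genes had at least 1 count. ZNF507 mRNA, in order of replicate 1 and 2, had 1792 and 2087 counts in EV, 1809 and 1843 in sgZNF146, and 1088 and 1411 in sgZNF507. It was lower in sgZNF507 than in EV by edgeR's quasi-likelihood test (log2 fold change -0.62, SE 0.070, adjusted p = 0.00195). Counts of ZNF146 mRNA were 2860 and 2915 for EV, 2517 and 2583 for sgZNF146, and 2036 and 2937 for sgZNF507. Scaled to CPM they were 115 and 105 for EV, 99.2 and 103 for sgZNF146, and 88.4 and 101 for sgZNF507. Against EV, ZNF146 changed by -0.13 on the log2 scale (SE 0.077, adjusted p = 0.9999 in edgeR) where it was targeted. The value was -0.21 (SE 0.077, adjusted p = 0.9996 in edgeR) with the ZNF507 guides, which do not target it. Neither value passed the adjustment. By western blot, the paper could hardly detect either protein in the targeted cells. Protein was not measured here, and the cause of these mRNA levels was not tested. Of the HEK293 markers, VIM (mean 1041 CPM), CDH2 (160 CPM) and PAX2 (6.15 CPM) were all present. Summed counts of 7 markers of blood, endothelium, liver and fibroblasts were 192 to 286 per library, of which the collagen gene COL3A1 gave 143 to 247; the T cell marker CD3E was at 0 in 5 of 6 libraries. Some mitochondrial rRNA remained after both ribosomal depletion and the removal of rRNA reads. Of this, MT-RNR1 was at 1550 and 1673 CPM in EV, 133 and 158 CPM in sgZNF146, and 944 and 50.9 CPM in sgZNF507. Both EV libraries were thus above all 4 guide libraries, the sgZNF507 pair was far apart, and the part of this in the comparisons with EV was not tested. All 13 mitochondrial mRNAs had a lower value in sgZNF507 than in EV (median log2 fold change -0.31). Each had an unadjusted p under 0.05 in edgeR, as had 747 of all 22010 genes tested, and 0 of the 13 passed the adjustment. By replicate number MT-ND3 was lower in replicate 2 (-0.23, adjusted p = 0.000859 in edgeR), and MT-ND5 (0.14, adjusted p = 0.0291) and MT-ND6 (0.21, adjusted p = 0.0328) were higher. Of all genes, 7.25% were called by replicate number.

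The 8 lncRNAs fell into 3 tiers of abundance. Levels are given as CPM, the usual depth-normalised count, with library sizes scaled by TMM. MALAT1 stood far above the rest, KCNQ1OT1, NEAT1, NORAD, TUG1 and DANCR held the middle, and H19 and MEG3 were the lowest, at ranks 13018 and 14173 of the 22010 genes tested. Together they took 0.289% to 0.341% of the counts of a library, of which MALAT1 alone made up 66.7% to 71.3%.

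**Figure D1:**
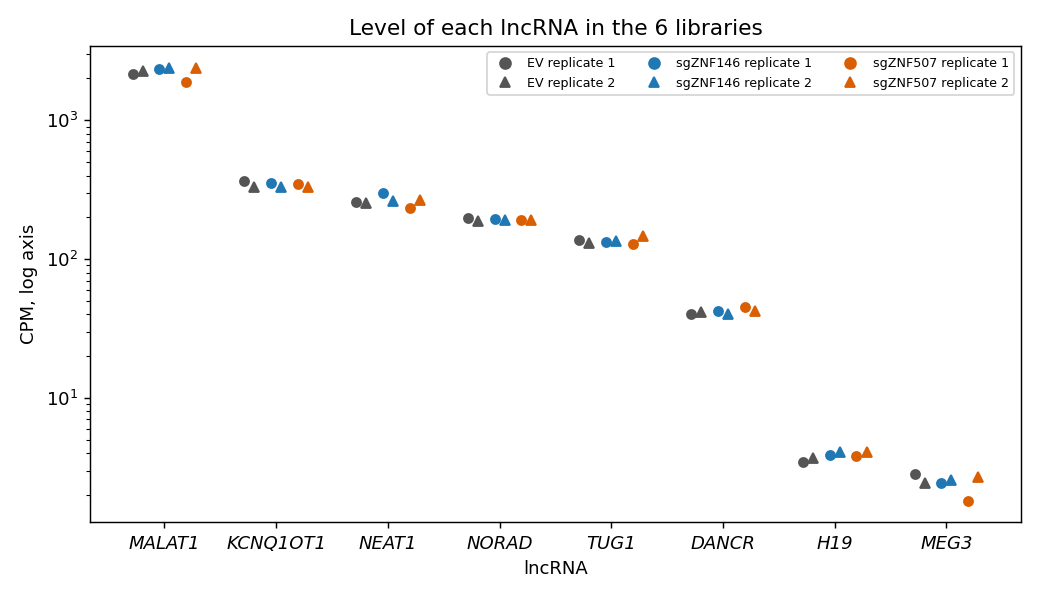
CPM on a log axis of the 8 lncRNAs, 1 point per library, with colour for the condition and shape for the replicate number. MALAT1 lies between 1899 and 2396 CPM, the 5 RNAs of the middle tier between 40.1 and 367 CPM, and H19 and MEG3 between 1.82 and 4.11 CPM, with the libraries of all 3 conditions close together.

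MALAT1 was at 2161 and 2265 CPM in EV, 2323 and 2396 CPM in sgZNF146, and 1899 and 2375 CPM in sgZNF507 (replicates 1 and 2). The lowest and next to highest values of MALAT1 thus both came from sgZNF507, whose pair enclosed both EV values. MALAT1 ranked 20 among the 22010 genes tested and 3 among the lncRNAs. Its 43752 to 68789 counts gave a counting error of 0.381% to 0.478%, while its coefficient of variation over the 6 libraries was 8.31%, so the spread was far above counting error.

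NEAT1 was at 257 and 254 CPM in EV, 298 and 261 CPM in sgZNF146, and 235 and 265 CPM in sgZNF507. Both sgZNF146 values were above both EV values, and the sgZNF507 values lay on either side of EV. The highest library of NEAT1 was 1.27 times its lowest, as for MALAT1 at 1.26 times.

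KCNQ1OT1 was at 367 and 332 CPM in EV, 352 and 329 CPM in sgZNF146, and 346 and 329 CPM in sgZNF507. The 3 groups overlapped, and replicate 1 was the higher of the pair in each. H19 was at 3.46 and 3.69 CPM in EV, 3.90 and 4.05 CPM in sgZNF146, and 3.82 and 4.11 CPM in sgZNF507, with both guide groups above EV. MEG3 was at 2.85 and 2.42 CPM in EV, 2.44 and 2.54 CPM in sgZNF146, and 1.82 and 2.69 CPM in sgZNF507, and its groups overlapped. H19 rested on 86 to 119 counts and MEG3 on 42 to 78, for which the counting errors were 9.17% to 10.8% and 11.3% to 15.4%, close to their variation of 6.31% and 14.3% over the libraries. These errors cover counting only.

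TUG1 was at 137 and 130 CPM in EV, 134 and 136 CPM in sgZNF146, and 128 and 147 CPM in sgZNF507, and the sgZNF507 pair enclosed all the others. NORAD was at 199 and 188 CPM in EV, 196 and 192 CPM in sgZNF146, and 190 and 191 CPM in sgZNF507. It was the steadiest of the 8, with a coefficient of variation of 2.07% and a highest library 1.06 times the lowest. DANCR was at 40.5 and 41.4 CPM in EV, 42.3 and 40.1 CPM in sgZNF146, and 45.6 and 42.4 CPM in sgZNF507, with both sgZNF507 values above both EV values. In RNA from a whole culture, fewer cells with a transcript and less of it per cell cannot be told apart.

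The order of the RNAs changed when levels were divided by length, and it depended on the length taken. Per kb of all annotated exon in the GENCODE annotation, MALAT1 came first with 214 ± 17.8 CPM per kb (SD, n = 6 libraries), followed by NORAD with 35.7 ± 0.740. TUG1 (13.3 ± 0.663) and NEAT1 (11.5 ± 0.904) came next, and their ranges over the libraries overlapped. DANCR (4.13 ± 0.191) and KCNQ1OT1 (3.70 ± 0.167) also overlapped. H19 (1.11 ± 0.0699) and MEG3 (0.106 ± 0.0152) came last, in CPM per kb. By this length, 92625 bases for its exons together, KCNQ1OT1 went from the second place by CPM to the sixth. Its canonical transcript has 679 bases, and divided by that length KCNQ1OT1 was at 484 to 541 CPM per kb, above MALAT1 at 182 to 230. With canonical lengths TUG1 (17.1 to 19.7 CPM per kb) no longer overlapped NEAT1 (10.3 to 13.1), whereas DANCR (10.1 to 11.5) did. H19 (3.12 to 3.71, 1106 bases) then overlapped MEG3 (2.88 to 4.51, 632 bases). The counts are summed over a whole gene and do not say which transcripts the reads came from, so the place of KCNQ1OT1 per length was not settled here. The authors used an Ensembl annotation, whose exons may differ from those of the GENCODE annotation that gave the lengths. For the other RNAs too, the order per kb therefore depends on these lengths.

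Neither disruption moved any of the 8 lncRNAs past the test. In sgZNF507 against EV, 0 of 8 were called at an adjusted p under 0.05, where 0.182% of all genes were (40 of 22010, edgeR). The log2 fold changes ran from -0.20 for MEG3 to 0.15 for H19, and the median was -0.03, against -0.00 over all genes tested. By absolute size the median was 0.05, against 0.09 over all genes. No member had an unadjusted p under 0.05 (747 genes did), and DESeq2 also called 0 of 8. Both sgZNF507 libraries were above both EV libraries for H19 and DANCR and for no other member, 2 of 8, where 29.3% of all genes did not overlap in either direction.

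The intervals say how large a change these libraries leave room for. In sgZNF507 against EV, NORAD had a log2 fold change of -0.02 with a 95% interval of -0.15 to 0.11, and KCNQ1OT1 had -0.05 with -0.20 to 0.10. MALAT1 had -0.05 (-0.24 to 0.14), NEAT1 -0.03 (-0.20 to 0.13), TUG1 0.04 (-0.11 to 0.20) and DANCR 0.10 (-0.07 to 0.27). The low-count H19 and MEG3 had wider intervals, -0.22 to 0.52 and -0.70 to 0.30. For 7 of the 8 the interval stayed within a 1.5-fold change in either direction, MEG3 being the exception. The lower values of MALAT1, NEAT1 and MEG3 came from sgZNF507 replicate 1, without which their log2 fold changes were 0.10, 0.05 and 0.03.

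In sgZNF146 against EV, again 0 of 8 were called, as were 0% of all genes (0 of 22010 by edgeR and by DESeq2, 535 with an unadjusted p under 0.05). Log2 fold changes ran from -0.08 for MEG3 to 0.15 for H19, with a median of 0.01 against -0.00 over all genes. NEAT1 had 0.13, with an interval of -0.04 to 0.30, and its unadjusted p of 0.126 in edgeR was the smallest among the members. NORAD stood at 0.00 (-0.12 to 0.13), DANCR at 0.01 (-0.17 to 0.18), TUG1 at 0.01 (-0.14 to 0.17), KCNQ1OT1 at -0.04 (-0.19 to 0.11) and MALAT1 at 0.09 (-0.10 to 0.28). The low-count H19 (-0.22 to 0.52) and MEG3 (-0.57 to 0.42) had the widest intervals. All 8 intervals stayed within 1.5-fold, that of MEG3 only just, with a lower end at a fold of 0.672. For MALAT1, NEAT1 and H19 both sgZNF146 libraries were above both EV libraries, 3 of 8, where 28.6% of all genes did not overlap. This comparison shares the EV libraries with that of sgZNF507, so that H19, higher than EV in both, was not measured against separate controls.

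Set directly against each other, sgZNF507 and sgZNF146 differed in 0 of 8 lncRNAs, where 0.173% of all genes were called (38 of 22010). NEAT1 had the largest difference, a log2 fold change of -0.16 (interval -0.33 to 0.01, unadjusted p = 0.0589, adjusted p = 1.00 in edgeR), and MALAT1 followed with -0.14 (-0.33 to 0.05). H19, at 0.15 against EV in both groups, differed by -0.00 (-0.37 to 0.36). Both sgZNF507 libraries were above both sgZNF146 libraries for DANCR and below them for NORAD, 2 of 8, where 32.1% of all genes did not overlap. No member had an unadjusted p under 0.05, while 887 genes did, and DESeq2 also called 0 of 8.

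**Figure D2:**
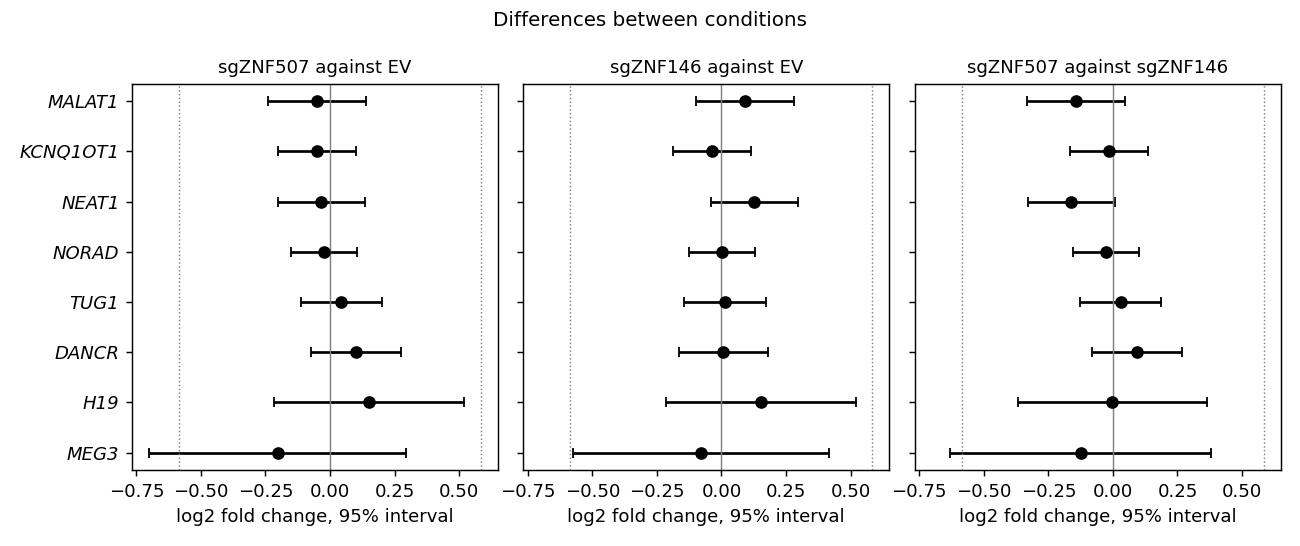
Log2 fold change of each lncRNA (points) with its 95% interval (bars) in the 3 comparisons of conditions, from edgeR with 2 libraries per group; the solid line marks no difference and the dotted lines a 1.5-fold change. Every interval includes 0, and that of MEG3 passes the dotted line in both comparisons of sgZNF507.

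The 8 guides were also searched for in the lncRNA genes, with 2000 bases added on each side and both strands read. No site had 3 or fewer mismatches, and the closest, in KCNQ1OT1, NEAT1, MEG3 and TUG1, had 4.

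MALAT1 did differ between the replicate numbers. Fitted over the 3 groups, replicate 2 was higher than replicate 1 by 0.15 on the log2 scale (SE 0.045, interval 0.05 to 0.24, adjusted p = 0.0376 in edgeR), and it was higher in 3 of 3 groups. This was 1 of 8 members called, where 7.25% of all genes were (1596 of 22010). The difference was 0.07 in EV, 0.05 in sgZNF146 and 0.32 in sgZNF507, so that the sgZNF507 pair made up most of it. Without sgZNF507 replicate 1 or replicate 2 the fitted value was 0.06. A library left alone in its group adds nothing to this term, so both values are in effect 1 estimate from EV and sgZNF146. DESeq2 on all 6 libraries did not call the difference (0.14, adjusted p = 0.467). Among 10647 genes with a mean of at least 10 CPM, 6.57% had a larger absolute difference than MALAT1 within sgZNF507, against 58.9% within EV and 69.1% within sgZNF146.

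KCNQ1OT1 went the other way, lower in replicate 2 in 3 of 3 groups, where EV gave a log2 difference of -0.15, sgZNF146 one of -0.10 and sgZNF507 one of -0.08. Its fitted value of -0.11 (interval -0.20 to -0.01) did not pass the adjustment (adjusted p = 0.168 in edgeR). H19 was higher in replicate 2 in 3 of 3 groups, with a fitted value of 0.09 (adjusted p = 0.806). These 3 of 8 had 1 direction in all groups, as did 39.6% of all genes. The other RNAs changed direction between groups, and in sgZNF507 MEG3 (0.56), TUG1 (0.20) and NEAT1 (0.18) were also higher in replicate 2. The ratio of replicate 2 over replicate 1 was highest in sgZNF507 for every RNA but DANCR, for H19 by little (0.105 against 0.095 in EV). The share of all genes with this order was not counted. Among genes with a mean of at least 10 CPM, the median absolute difference was also largest in sgZNF507. It was 0.10 there, 0.085 in EV and 0.078 in sgZNF146. The labels call the libraries biological duplicates and do not say what the replicate numbers share. The HEK293 markers KRT8 (0.18, adjusted p = 0.0153), KRT18 (0.15, adjusted p = 0.0315) and CDH2 (0.14, adjusted p = 0.0194) rose with replicate number as well. These were 3 of 6 markers tested, where 7.25% of all genes were called, and their part in the MALAT1 difference was not tested.

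**Figure D3:**
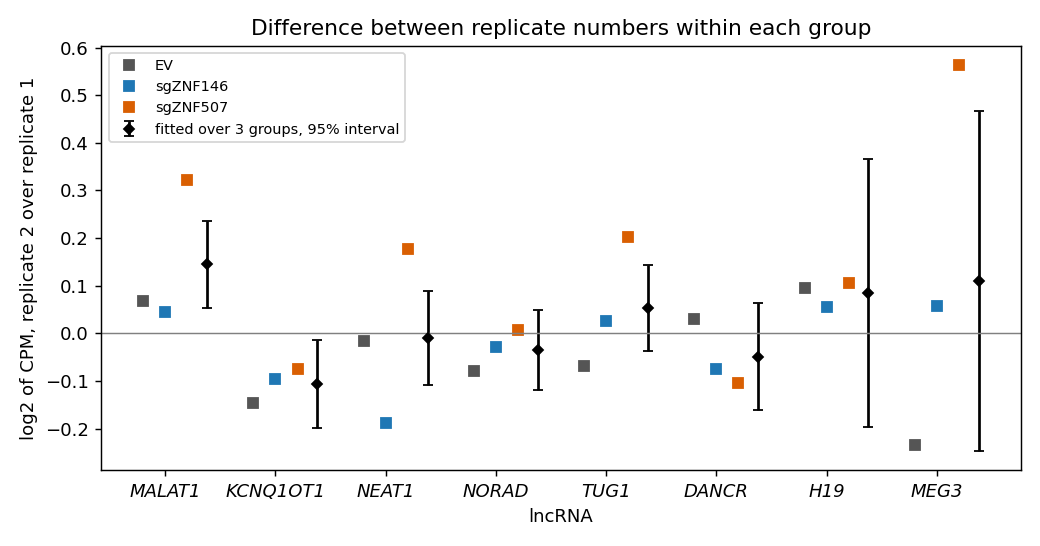
Log2 ratio of CPM in replicate 2 over replicate 1 for each lncRNA, 1 square per condition, with the value fitted over the 3 groups and its 95% interval as a black diamond with bars. MALAT1 is above 0 in all 3 groups and KCNQ1OT1 is below 0 in all 3. The sgZNF507 square is the highest of its column for every RNA but DANCR, for H19 by little, and the share of all genes with this order was not counted.

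The partners of the nuclear RNAs were examined next. Of 14 paraspeckle proteins tested, among them SFPQ and NONO, which bind NEAT1, none was called in any comparison of conditions, and the medians were -0.04 in sgZNF507 and -0.02 in sgZNF146 against EV. SFPQ was at 758 and 725 CPM in EV, 776 and 726 CPM in sgZNF146, and 732 and 704 CPM in sgZNF507. Of 12 proteins of nuclear speckles, where MALAT1 resides, none was called either, with medians of -0.09 and -0.01. SRRM2, a scaffold of speckles, had a mean of 2096 CPM, near that of MALAT1 itself, and log2 fold changes of -0.05 and -0.02. In the contrast of replicate numbers the splicing factor SRSF7 (0.18, adjusted p = 0.00613) and the splicing kinase CLK1 (0.22, adjusted p = 0.0101) were higher in replicate 2. These were 2 of 12, where 7.25% of all genes were called, and no paraspeckle protein was called.

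The 12 genes tested for processing of the MALAT1 end comprise subunits of RNase P, the tRNA 3′ nuclease ELAC2 and METTL16, which binds the triple helix. None was called between conditions, with medians of -0.03 in sgZNF507 and 0.02 in sgZNF146 against EV. RPP25, a subunit of RNase P and the related RNase MRP, was lower in replicate 2 (log2 difference -0.35, adjusted p = 8.29e-06). It was at 53.4 and 42.0 CPM in EV, 53.6 and 44.6 CPM in sgZNF146, and 56.7 and 41.5 CPM in sgZNF507, so that the replicate numbers did not overlap. Of proteins that bind NORAD, PUM2 (mean 105 CPM), RBMX (268 CPM) and KHDRBS1 (282 CPM) were tested, none of these was called in any of the 4 comparisons, and their log2 fold changes against EV lay between -0.10 and 0.01.

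The imprinted RNAs were then set beside the genes of their domains. At 11p15, 9 of 14 listed genes were tested and none was called in any comparison. The medians were 0.07 in sgZNF507 and 0.10 in sgZNF146 against EV. CDKN1C, a cell cycle inhibitor silenced by KCNQ1OT1 on the paternal chromosome, was at 3.09 and 3.65 CPM in EV, 4.73 and 4.05 CPM in sgZNF146, and 5.16 and 2.90 CPM in sgZNF507. IGF2, a growth factor imprinted opposite to H19, was at 2.81 and 3.69 CPM in EV, 3.86 and 4.69 CPM in sgZNF146, and 3.60 and 3.59 CPM in sgZNF507. Both genes were thus low and variable, at the level of H19. SLC22A18, a transporter gene of the KCNQ1OT1 domain, was at 4.34 and 3.91 CPM in EV, 4.14 and 4.65 CPM in sgZNF146, and 5.47 and 6.04 CPM in sgZNF507, and its log2 fold change of 0.49 (SE 0.16) in sgZNF507 against EV did not pass the adjustment (adjusted p = 1.00 in edgeR). NAP1L4 (mean 181 CPM) and CD81 (260 CPM) were abundant and had log2 fold changes within 0.10 of 0 against EV in both groups.

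At 14q32, the listed genes were low or at 0, as MEG3 was. MEG8, a lncRNA downstream of MEG3, had a mean of 0.858 CPM, and BEGAIN, upstream, had 2.63 CPM, close to the 2.46 CPM of MEG3; these were the only 2 of 7 listed genes that could be tested, and neither was called. DLK1 and RTL1, the paternally expressed coding genes of the domain, drew 0 counts in all 6 libraries, which allows up to 3 counts per library. Of 30 imprinted genes elsewhere, 16 were tested and none was called between conditions, with medians of 0.03 in sgZNF507 and 0.02 in sgZNF146 against EV. GNAS (mean 685 CPM) and GRB10 (93.7 CPM) were the strongest with UBE3A (85.2 CPM) and ZDBF2 (69.0 CPM), while NDN and MAGEL2, among others, drew no counts. By replicate number PLAGL1 rose (0.21, adjusted p = 0.0142) and ZDBF2 fell (-0.19, adjusted p = 0.0111).

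**Figure D4:**
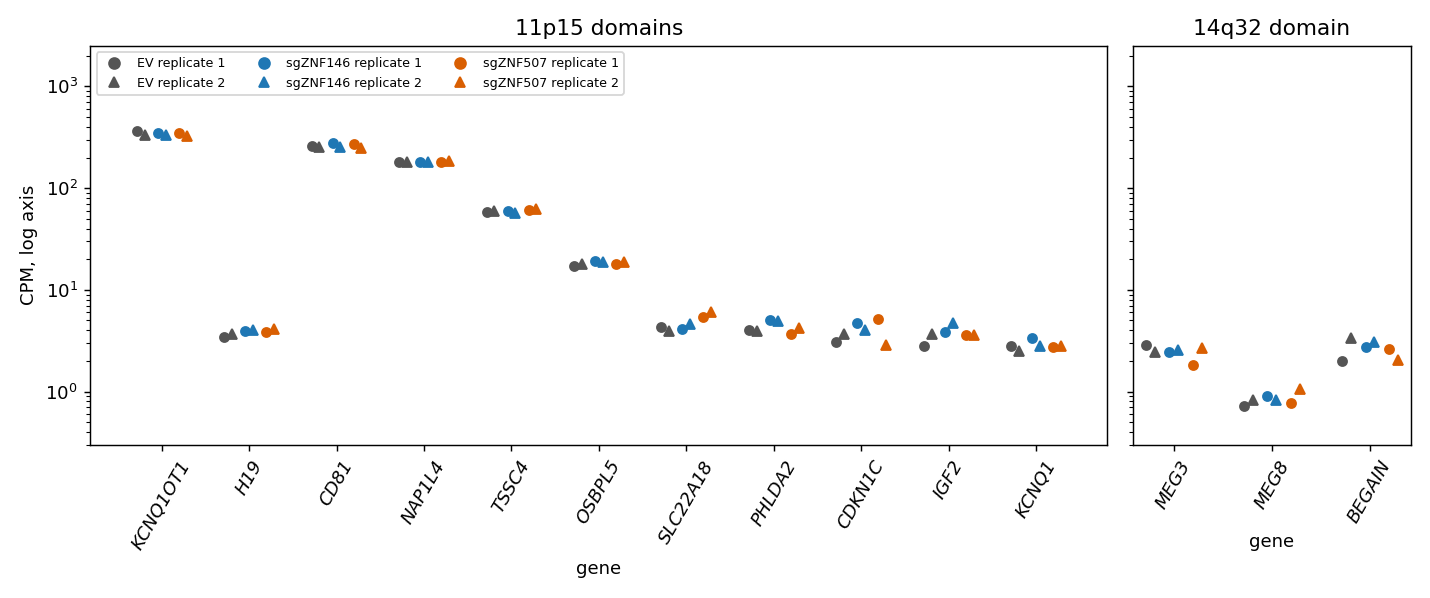
CPM on a log axis of KCNQ1OT1, H19 and the 9 tested genes of their 11p15 domains (left) and of MEG3 and the 2 tested genes of its 14q32 domain (right), 1 point per library, with colour for the condition and shape for the replicate number. KCNQ1OT1 lies between 329 and 367 CPM, more than its overlapping gene KCNQ1 at 2.50 to 3.39 CPM, and H19 and MEG3 lie in the range of the low coding genes.

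Factors that maintain imprints were tested as well, 6 of 8 listed. DNMT1, the maintenance DNA methyltransferase, had a mean of 463 CPM, TRIM28, the corepressor of KRAB zinc finger proteins, 912 CPM, and CTCF, which insulates IGF2 at the unmethylated H19 control region, 119 CPM. None was called, and the medians were -0.02 and -0.01 against EV. Of 11 subunits of Polycomb complex PRC2, a silencing complex that many lncRNAs have been linked to, none was called between conditions, and JARID2 was lower in replicate 2 (-0.14, adjusted p = 0.0310). Another 23 lncRNAs of 26 listed were tested. None was called between conditions, with medians of -0.06 in sgZNF507 and 0.01 in sgZNF146 against EV, and HOTAIRM1, from the HOXA cluster, was lower in replicate 2 (-0.32, adjusted p = 0.00528).

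Genes that overlap the lncRNAs bear on how reads were assigned, since the strand setting of the counting is not given in the sources used here. KCNQ1, on the strand opposite KCNQ1OT1, had 63 to 86 counts per library, and the antisense gene ENSG00000270117 at MALAT1 had 14 counts in all. Across from DANCR, ERVMER34-1 had 196 to 287 counts per library, and SNORA26, a small nucleolar RNA gene on the DANCR strand, had 19 to 34. Antisense genes at TUG1 drew 0 and 1 counts. The largest of these beside its partner was ERVMER34-1, whose mean of 9.19 CPM compares with 40.1 to 45.6 CPM for DANCR. TALAM1, antisense over most of MALAT1 (chr11:65266783-65274903, minus strand), and ENSG00000286161, antisense to DANCR, were not analysed here. Of the 14 nearest tested coding genes on either side, none was called between conditions. MORC2, which begins 0.471 kb from TUG1 on the opposite strand and encodes a chromatin ATPase, had log2 fold changes of -0.08 in sgZNF507 and -0.03 in sgZNF146 against EV. By replicate number SMTN, beside TUG1, rose (0.35, adjusted p = 6.51e-05) and EPB41L1, beside NORAD, fell (-0.16, adjusted p = 0.0409).

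The genes most like each RNA over the 6 libraries were found by Pearson's r of log2 CPM among genes with a mean of at least 10 CPM, as a description of 6 points that share library depth and replicate number. For MALAT1 they were ZFX and ZNF280C, both at 0.996 and both encoding zinc finger proteins. For NEAT1 they were ZNF608 (0.985) and FAM76B (0.976), and for KCNQ1OT1 KMT2E and PHACTR4, both at 0.989. MEG3 had DCLRE1A (0.993) and BMP2K (0.992), H19 had MRI1 and TP53INP2 (both 0.985), and TUG1 had C1GALT1 (0.991) and SANBR (0.987). NORAD had PURA and MRTFB (both 0.982), and DANCR had HES6 (0.987) and TLNRD1 (0.984). Between 47 and 242 genes had an r above 0.9 with a given RNA, fewest for H19 and most for MALAT1. Among the 8 themselves, KCNQ1OT1 and NORAD were the most alike (r = 0.83), MALAT1 came nearest to MEG3 (0.76) and NEAT1 (0.70), and MEG3 and DANCR were the most opposed (-0.86). MEG3 (42 to 78 counts) and H19 (86 to 119) have a counting error about as large as their spread. Their r values may thus hold largely counting error.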

How the data were processed

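RNA from HEK293 cells was isolated in biological duplicate, depleted of rRNA and sequenced as strand-specific paired-end libraries. The authors clipped reads with the Fastx Toolkit, removed rRNA reads with Bowtie, mapped the rest to hg19 with TopHat2 and counted them per Ensembl gene with featureCounts; the strand option is not given in the sources used here. The deposited values are raw counts per gene, without normalization or molecular identifiers, and no column was left out (0 other value columns). Identifiers were matched to GENCODE on GRCh37 (96.1% of 57773); TUG1 is typed there as protein coding.

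Samples were grouped by their labels. Counts were filtered by filterByExpr over the 3 groups, scaled by TMM and tested with edgeR 4.0.16 under R 4.3.3 (glmQLFit, glmQLFTest, all 6 libraries, 22010 genes), with Benjamini-Hochberg adjustment over all genes and a threshold of 0.05. The common dispersion was 0.0052. Replicate number was tested in a fit with group and number as terms. Each p-value sets a difference against the spread between these libraries, which was estimated with the help of the other genes. Alternatives were DESeq2 1.42.0, its size factors, upper quartile scaling, no filter, a minimum of 10 counts in every library, the compared libraries alone, the replicate number as a block and leaving out each library. The code was tested on simulated data, and figures were drawn with matplotlib 3.10.9.

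The 8 members and the gene lists were chosen with earlier results of these data known. Named genes were the members, each called gene of a list and at most 4 others by mean CPM, overlapping and nearest coding genes, and the 2 most correlated genes per member; DLK1, RTL1, NDN, MAGEL2 and PAX2 fall outside this rule and were named for their role, and SLC22A18 was chosen after its values were seen. A gene of the lists is not reported here.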

Additional observations from a re-analysis of the deposited data

How the results depend on the processing

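Of 424 values of the 8 lncRNAs recomputed under the alternatives, 387 kept direction and side of the threshold, 33 changed sign, 4 lost a call and 0 gained one. In the 3 comparisons of conditions 0 members were called under every alternative run. The MALAT1 difference by replicate number, 1 member called, gave 0 with upper quartile scaling (0.13, adjusted p = 0.0809 in edgeR) and with DESeq2 (0.14). It was 0.06 without either sgZNF507 library, in effect 1 estimate from EV and sgZNF146, and the cause was not tested. H19 in sgZNF507 against sgZNF146 turned from -0.00 to 0.00117 with DESeq2 size factors, 0.00715 with no filter, 0.000309 with at least 10 counts in every library and 0.000121 with DESeq2.

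Of the ranges with 1 library left out, only those that held both signs are listed, and the members not listed for a comparison kept direction in it. With 1 library left out (a lone sample was assumed to vary like the other groups), log2 fold changes in sgZNF507 against EV ran from -0.209 to 0.1 for MALAT1, -0.114 to 0.0497 for NEAT1, -0.125 to 0.0293 for KCNQ1OT1, -0.517 to 0.0316 for MEG3, -0.051 to 0.139 for TUG1 and -0.0652 to 0.0223 for NORAD. In sgZNF146 against EV they ran from -0.113 to 0.039 for KCNQ1OT1, -0.199 to 0.0399 for MEG3, -0.0263 to 0.0475 for TUG1, -0.0417 to 0.043 for NORAD and -0.0302 to 0.0439 for DANCR. In sgZNF507 against sgZNF146 they ran from -0.301 to 0.00763 for MALAT1, -0.0607 to 0.0391 for KCNQ1OT1, -0.439 to 0.109 for MEG3, -0.0464 to 0.045 for H19 and -0.064 to 0.125 for TUG1, and by replicate number from -0.101 to 0.0812 for NEAT1, -0.0907 to 0.294 for MEG3 and -0.0197 to 0.109 for TUG1.

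Same-numbered libraries deviated together only weakly (r = 0.138 to 0.176 across 22010 genes), and the labels do not say that a number marks a shared batch. With replicate number as a block in edgeR the count of all genes went from 40, 0 and 38 to 121, 33 and 196 in sgZNF507 against EV, sgZNF146 against EV and sgZNF507 against sgZNF146, and with the block in DESeq2 to 63, 0 and 78; no member was called. With no filter these were 101, 19 and 112, on the 4 libraries compared 28, 3 and 30, and with 1 library left out 12 to 44, 0 to 3 and 13 to 37. By replicate number DESeq2 called 423 genes against 1596, and leaving out a library 956 to 1239. Depth limits MEG3 and H19, whose counting error alone is about the spread between libraries.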
